A study of Mus musculus with 10 samples.

Results

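The transcripts of 9 genes that encode sensors of foreign or misplaced nucleic acids, or the adaptors of such sensors, were followed in keratinocytes and CD8+ T cells. The genes were taken by their names: Ddx58, Ifih1, Dhx58, Mavs, Tlr3, Eif2ak2, Zbp1, Mb21d1 and Tmem173. All 9 were found, each once, among the 25814 genes of the tables of all 10 libraries. The libraries were made from poly(A) RNA of C57/B6 cells and form 5 groups of 2. Primary keratinocytes from mouse tails were kept without T cells (keratinocytes alone) or with splenic CD8+ T cells that were washed off before lysis. The T cells had all been activated for 1 d with αCD3/CD28 Abs in X-VIVO 15 medium. They were lysed then (activated T cells), after 1 d more without keratinocytes in a mix of keratinocyte medium and X-VIVO 15 (T cells in mixed medium), or after 1 d more with keratinocytes (co-cultured T cells). The study describes keratinocyte cultures in serum-free keratinocyte medium and all co-cultures in the mix. It describes no keratinocytes alone in the mix, so T cells and medium cannot be told apart in the comparison of the keratinocyte groups. No group carried a mutation or a transgene, all T cells including those added to keratinocytes had been activated, and no group was given a viral or synthetic nucleic acid according to the labels. The design text gives a co-culture of hours where the labels of the T cells give 1 d, and the labels of T cells in mixed medium name keratinocyte medium where the study's text names the mix. No source states that the 2 libraries of a group came from separate cultures or animals, so p-values measure only the spread between these libraries.

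Cells detect viral or displaced self nucleic acids with several families of receptors. RIG-I (Ddx58) and MDA5 (Ifih1) are helicases that bind double-stranded RNA in the cytosol and signal through MAVS on mitochondria, while LGP2 (Dhx58) belongs to the same family and lacks the signalling domain. TLR3 recognizes double-stranded RNA in endosomes, PKR (Eif2ak2) binds it in the cytosol and shuts down translation by phosphorylation of eIF2α, and ZBP1 (Zbp1) binds Z-form nucleic acids and can start necroptosis. cGAS (Mb21d1) makes a cyclic dinucleotide upon binding of cytosolic DNA, which activates STING (Tmem173). In the skin, keratinocytes are known as a barrier that expresses several of these receptors, and many of the receptor genes are themselves induced by interferons.

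The RefSeq promoters (GRCm38.p6, 250 bases before to 50 bases after the transcript start) of 6 of the 9 genes were searched on both strands for the core of the interferon-stimulated response element, GAAANNGAAA, and for the gamma-activated site, TTCNNNGAA. A promoter sequence was found for Ddx58, Ifih1, Mavs, Tlr3, Eif2ak2 and Mb21d1. The 4 matches are shown because both motifs are known from promoters of genes induced by interferons. Capitals mark the match, position 1 is the first base of the transcript, and each window is 30 bases long, written 5′ to 3′ on the strand of the gene.
Ddx58, response element on the opposite strand at positions 3 to 12, chr4:40239804-40239833, minus strand: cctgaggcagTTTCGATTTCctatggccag
Ifih1, response element at positions 33 to 42, chr2:62646206-62646235, minus strand: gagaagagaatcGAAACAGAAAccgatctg
Eif2ak2, response element at positions 19 to 28, chr17:78882535-78882564, minus strand: agtccgccggGAAAACGAAAcagaagagaa
Eif2ak2, gamma-activated site at positions -178 to -170, chr17:78882731-78882760, minus strand: ctgcagagctTTCCCAGAAtggaagccagg
GAAANNGAAA was present in 3.44% of the 32851 promoters of the table and TTCNNNGAA in 8.30%. No match of one pattern overlapped with a match of the other, and a match describes the letters only. No match was found in the windows of Mavs, Tlr3 and Mb21d1.

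Each library held 12864931 to 18019609 exon reads, and the 2 libraries of a group differed far beyond sampling noise, with a mean chi-square per gene of 89.1 to 198.5. The labels were checked against marker genes. In keratinocyte libraries 11 or 12 of 12 keratinocyte markers reached 1 RPKM (reads scaled to exon length and library size), while Krt15 was at 1.09 RPKM or less. T-cell RNA was present in keratinocyte libraries with and without T cells: the summed level of 9 T-cell markers was 114.6 and 447.9 RPKM in replicates 1 and 2 of keratinocytes alone, and 145.4 and 792.9 RPKM in co-cultured keratinocytes, against 971.8 to 1915 RPKM in T-cell libraries. The CD8 genes took little part in it, since Cd8a reached at most 1.16 RPKM in keratinocyte libraries, whereas Cd4 stood at 11.4, 43.5, 15.0 and 84.5 RPKM. The T-cell libraries themselves held Cd4 at 16.8 to 102.3 RPKM besides Cd8a at 110.0 to 333.9 RPKM. In turn, the 12 keratinocyte markers summed to 120.3 and 219.2 RPKM in co-cultured T cells and to at most 24.0 RPKM in the other T cells. Cd207, a marker of Langerhans cells, and 3 genes of γδ T cells were at 0 in every library, which alone does not show that such cells were absent. The 9 myeloid and Langerhans markers, Cd207 included, summed to 42.1 to 84.05 RPKM in keratinocyte libraries. In T-cell libraries they summed to 27.6 to 101.3 RPKM. B-cell markers summed to 17.0 to 93.5 RPKM in T-cell libraries, and melanocyte markers to 6.72 to 20.7 RPKM in keratinocyte libraries. In such bulk libraries fewer cells of a type and less RNA per cell cannot be told apart.

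To show how far a level could be set by this RNA, the median ratio of the T-cell markers to co-cultured T cells was taken for each keratinocyte library and multiplied by the level of each sensor gene in co-cultured T cells. The ratio was 6.28% and 26.6% for keratinocytes alone and 8.16% and 44.3% for co-cultured keratinocytes. For single markers it ranged from 2.09% to 75.5%, so the products are rough values, and the part of this RNA in the results was not tested. They also assume that the RNA had the composition of co-cultured T cells, which the low CD8 levels go against. In replicate 2 of co-cultured keratinocytes the products were 48.2% of the measured level of Ddx58, 17.9% of Ifih1, 48.55% of Mavs and 38.5% of Eif2ak2. In replicate 1 they were 5.635%, 1.18%, 4.81% and 1.12%. In replicate 2 of keratinocytes alone they were 19.3%, 7.59%, 16% and 8.02%. Keratinocyte markers gave ratios of 0.623% and 0.249% in co-cultured T cells, and the products were at most 4.04% of the measured level of any sensor gene with reads there.

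**Figure D1:**
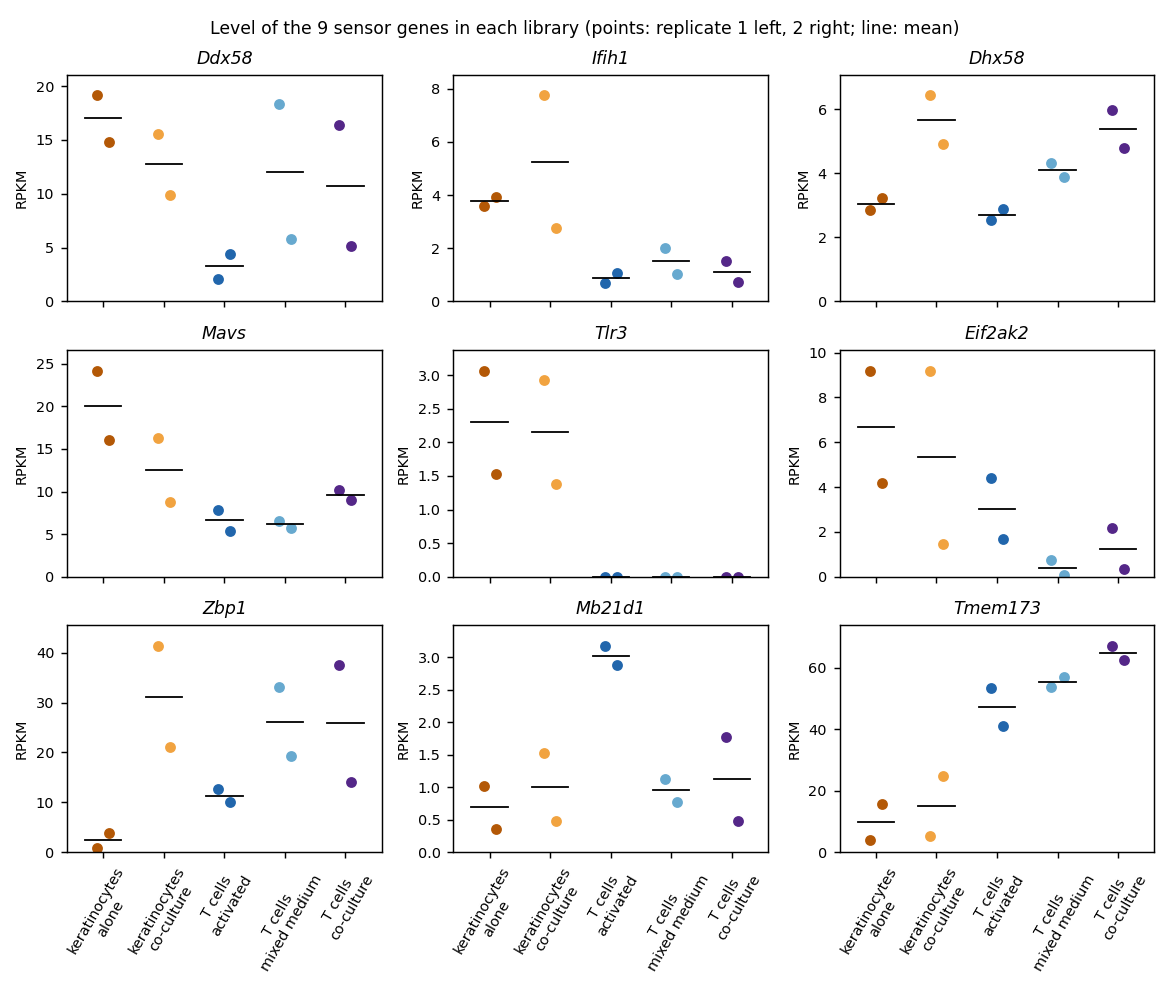
Level in RPKM (y axis, linear, from 0) of each of the 9 sensor genes in the 10 libraries, by group (x axis). Points are libraries, with replicate 1 on the left, and lines are group means. Tlr3 is at 0 in all 6 T-cell libraries, Tmem173 is highest in T cells, and Zbp1 is lowest in keratinocytes alone.

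The RNA helicases of the RIG-I family were present in both cell types. Ddx58 (ENSMUSG00000040296, chromosome 4, 40203773 to 40239828, minus strand, 20 exons) had 19.2 and 14.8 RPKM in keratinocytes alone, 15.6 and 9.87 RPKM in co-cultured keratinocytes, 2.12 and 4.41 RPKM in activated T cells, 18.3 and 5.78 RPKM in mixed medium and 16.3 and 5.16 RPKM in co-cultured T cells. Activated T cells were lowest, and their libraries did not overlap with those of any other group. The other 4 groups overlapped with their neighbours in the order of means. Keratinocytes alone exceeded activated T cells by 2.51 ± 0.65 (log2 fold change ± SE, edgeR adjusted p = 0.0170).

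Compared with activated T cells, Ddx58 was higher by 1.98 ± 0.70 on the log2 scale in mixed medium and by 1.85 ± 0.69 in co-culture. Neither difference passed the edgeR test after adjustment (adjusted p = 0.127 and 0.128). Both passed with DESeq2 (adjusted p = 0.0249 and 0.0353) and without a filter on low counts. With uniquely mapped gene reads, introns included, edgeR called 0 sensor genes in either comparison. The libraries within both later T-cell groups differed by 3.17-fold.

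Reads on introns set the activated T cells apart as well. There Ddx58 had 298 and 447 intron reads beside 138 and 246 exon reads, so that introns held 68.3% and 64.5% of its reads. In the other 8 libraries introns held 4.53% to 33.2% of them. With introns included, Ddx58 had 436 and 693 reads in activated T cells, before scaling to library size. It had 1149 and 565 such reads in mixed medium and 1058 and 424 in co-cultured T cells, so these groups overlapped. All exon reads of Ddx58 were uniquely mapped and no other annotated gene overlaps it. With all uniquely mapped reads of the gene, introns included, the difference between keratinocytes alone and activated T cells was 1.04 on the log2 scale (edgeR adjusted p = 0.137).

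**Figure D2:**
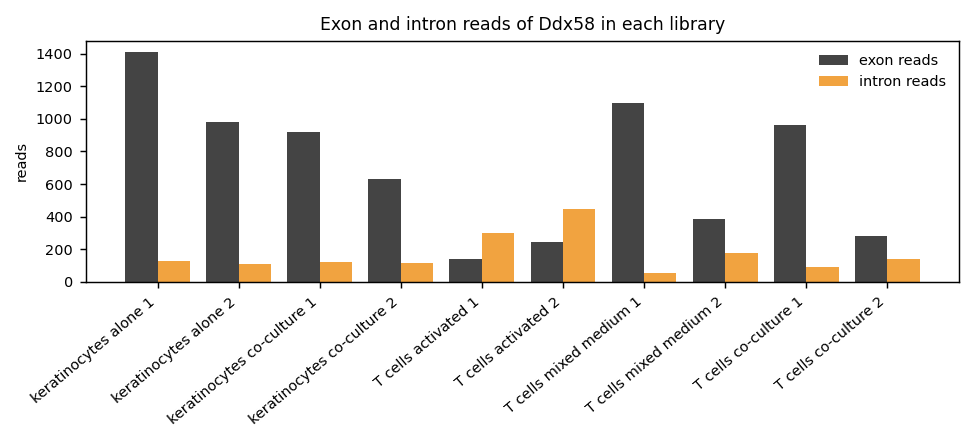
Number of reads on exons (grey) and on introns (orange) of Ddx58 (y axis) in each of the 10 libraries (x axis). Only activated T cells have more intron than exon reads, 298 and 447 against 138 and 246.

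Ifih1 (ENSMUSG00000026896, chromosome 2, 62595798 to 62646255, minus strand) had 3.60 and 3.92 RPKM in keratinocytes alone, 7.76 and 2.76 RPKM in co-cultured keratinocytes, and 0.674 to 2.01 RPKM in the 6 T-cell libraries. Every keratinocyte library was above every T-cell library. Keratinocytes exceeded T cells by 2.24 ± 0.58 on the log2 scale alone and by 2.17 ± 0.58 in co-culture (edgeR adjusted p = 0.0169 and 0.0269). Leaving out any co-cultured T-cell library, or replicate 1 of the co-cultured keratinocytes, ended the second call (edgeR adjusted p = 0.0644 to 0.202), and the trend with exon length, once removed, ended the first (1.23, edgeR adjusted p = 0.0622). Co-culture made no detectable difference in keratinocytes (0.52 ± 0.52, edgeR adjusted p = 0.743), where the value without co-culture replicate 1 was -0.32.

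Dhx58 (ENSMUSG00000017830, chromosome 11, 100694884 to 100704271, minus strand) encodes the regulator of the other two helicases. It had 2.86 and 3.21 RPKM in keratinocytes alone and 6.44 and 4.90 RPKM with T cells. In T cells it had 2.54 and 2.88 RPKM upon activation, 4.32 and 3.87 RPKM in mixed medium and 5.99 and 4.78 RPKM in co-culture. Thus the co-cultured libraries of either cell type lay above those of the same cells without a partner, with no overlap. The difference of 0.96 ± 0.38 in keratinocytes missed the threshold also before adjustment (edgeR adjusted p = 0.658). From activated to co-cultured T cells it was 1.17 ± 0.43 (edgeR adjusted p = 0.119). The T-cell marker ratio would give 6.83% and 48.6% of the measured level in replicates 1 and 2 of co-cultured keratinocytes. An opposite-strand gene, Dhx58os, overlaps Dhx58, and reads of both cannot be told apart without strand.

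Mavs (ENSMUSG00000037523, chromosome 2, 131234063 to 131248025, plus strand), the shared adaptor of RIG-I and MDA5, had 24.2 and 16 RPKM in keratinocytes alone and 16.3 and 8.78 RPKM in co-culture. T cells held 7.80 and 5.42 RPKM after activation, 6.55 and 5.78 RPKM in mixed medium and 10.2 and 9.04 RPKM in co-culture. The highest values were in keratinocytes, and the levels in co-cultured T cells were above those in both other T-cell groups. Keratinocytes alone exceeded activated T cells by 1.76 ± 0.37 on the log2 scale (edgeR adjusted p = 0.00678). In co-culture the cell types differed by 0.29 ± 0.36 (edgeR adjusted p = 0.592). The T-cell marker ratio would give 4.81% and 48.55% of the measured level in replicates 1 and 2 of co-cultured keratinocytes. The part of this RNA was not tested. The effect of co-culture was -0.62 ± 0.40 in keratinocytes and 0.69 ± 0.36 against mixed medium in T cells. The difference between both effects, -1.33 ± 0.48, did not pass (edgeR adjusted p = 0.588).

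The endosomal receptor gene Tlr3 (ENSMUSG00000031639, chromosome 8, 45395665 to 45411080, minus strand) separated the cell types completely. Keratinocytes alone had 285 and 128 exon reads (3.07 and 1.54 RPKM) and co-cultured keratinocytes 218 and 111 reads (2.93 and 1.37 RPKM). In all 6 T-cell libraries 0 reads were counted. Taking 3 reads over these 6 libraries as the smallest level told apart from 0, keratinocytes alone were at least 350.3-fold higher and co-cultured keratinocytes at least 327.6-fold higher. The edgeR adjusted p was 0.00283 for keratinocytes alone against activated T cells and 0.00492 in co-culture. The keratinocyte RNA found in co-cultured T cells would give 0.0134 and 0.00535 RPKM of Tlr3, below the 3-read floor of these libraries. Within keratinocytes, replicate 1 was about as far above replicate 2 in either group (2.00-fold and 2.13-fold), and co-culture made a difference of -0.04 ± 0.55. An antisense gene, Gm45542, overlaps Tlr3.

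Eif2ak2 (ENSMUSG00000024079, chromosome 17, 78852564 to 78882573, minus strand), the gene of the kinase PKR, varied most between the libraries of 4 of the 5 groups. Keratinocytes alone had 9.17 and 4.18 RPKM, co-cultured keratinocytes 9.20 and 1.45 RPKM, activated T cells 4.39 and 1.67 RPKM, T cells in mixed medium 0.736 and 0.0806 RPKM and co-cultured T cells 2.19 and 0.328 RPKM. In each group replicate 1 was the higher one, by 2.19-fold to 9.12-fold. The level in mixed medium was below that after activation in both libraries (-2.78 ± 1.12 on the log2 scale). This difference did not pass after adjustment (edgeR adjusted p = 0.172). It did without the filter on low counts (edgeR adjusted p = 0.00155), where the calls among all genes rose from 776 to 1945. DESeq2 called 0 sensor genes lower in this comparison, and limma on log2(RPKM + 1) or log2(RPKM + 0.1) called 0. The libraries of mixed medium held only 49 and 6 exon reads, and the 3-read floor of replicate 2 was 0.0403 RPKM. The gene overlaps Gm26637 and n-R5s29 on the opposite strand.

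Zbp1 (ENSMUSG00000027514, chromosome 2, 173206612 to 173218923, minus strand) showed the largest difference among the 9 genes between keratinocytes with and without T cells. It had 36 and 145 exon reads (0.876 and 3.94 RPKM) in keratinocytes alone and 1361 and 751 reads (41.4 and 21.0 RPKM) in co-cultured keratinocytes. The groups did not overlap. The log2 fold change was 3.73 ± 0.85, with a p under the threshold only before adjustment (edgeR adjusted p = 0.658), and it ranged from 3.0 to 5.22 upon leaving out 1 library. DESeq2 called it (adjusted p = 2.90e-04), and edgeR called it without co-culture replicate 1 (adjusted p = 0.0309).

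The T-cell RNA would by its marker ratio give 1.62 and 6.87 RPKM of Zbp1 in keratinocytes alone, which is more than was measured there. In co-cultured keratinocytes it would give 2.11 and 11.4 RPKM, or 5.10% and 54.4% of the measured level. The part of this RNA in the level of Zbp1 was not tested. The study listed Zbp1, Dhx58 and Irf7 among genes induced in these same libraries, as well as Samhd1, Irf1, Stat2 and Ifi204, described below. The values given here for these genes in keratinocytes are thus no independent evidence for that.

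In T cells, Zbp1 had 12.7 and 10 RPKM after activation, 33.1 and 19.3 RPKM in mixed medium and 37.5 and 14.1 RPKM in co-culture. Both later groups lay above activated T cells without overlap, by 1.34 ± 0.47 on the log2 scale each (edgeR adjusted p = 0.123 and 0.105, DESeq2 adjusted p = 0.0340 and 0.0310). Co-culture differed from mixed medium by 0.00 ± 0.46. The effect of co-culture in keratinocytes exceeded that in T cells by 3.70 ± 1.05 (edgeR adjusted p = 0.350, DESeq2 adjusted p = 0.0267). Keratinocytes alone were below activated T cells by -2.07 ± 0.68 (edgeR adjusted p = 0.0427), while with a partner the cell types differed by 0.24 ± 0.65.

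**Figure D3:**
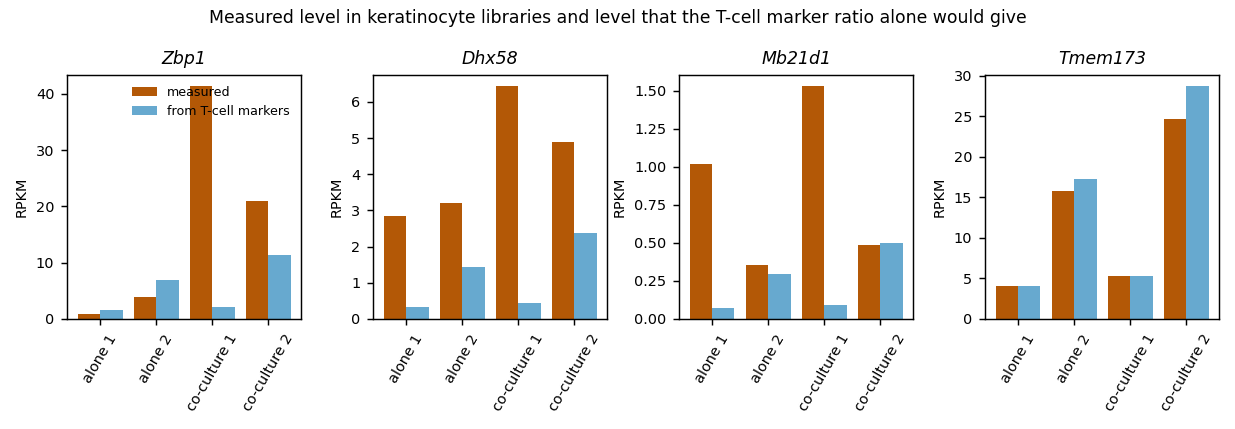
RPKM (y axis, linear, from 0) measured for 4 sensor genes in the 4 keratinocyte libraries (brown) and the RPKM that the median ratio of 9 T-cell markers would give (blue). For Tmem173 both bars are alike in all 4 libraries, while for Zbp1 the measured bar exceeds the other one only in the co-cultured libraries.

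Of the DNA-sensing pair, Mb21d1 was highest in activated T cells and Tmem173 in all T-cell groups. Mb21d1 (ENSMUSG00000032344, chromosome 9, 78430526 to 78443237, minus strand), which encodes the DNA sensor cGAS, had 3.17 and 2.88 RPKM in activated T cells, 1.13 and 0.773 RPKM in mixed medium and 1.77 and 0.480 RPKM in co-cultured T cells. Keratinocytes held 1.02 and 0.356 RPKM alone and 1.53 and 0.485 RPKM in co-culture, from 25 to 96 exon reads. The T-cell marker ratio would give 6.90% and 83.9% of the measured level alone and 5.99% and 102.6% in co-culture. The part of this RNA was not tested. Activated T cells were thus highest without overlap, and all other groups overlapped. None of its differences passed the main edgeR test, of which the largest were -1.53 ± 0.64 from activated T cells to mixed medium (edgeR adjusted p = 0.184) and -1.99 ± 0.79 from activated T cells to keratinocytes alone (edgeR adjusted p = 0.0804). The latter passed with DESeq2 (adjusted p = 0.0398) and limma on log2(RPKM + 1) (adjusted p = 0.0260), and with edgeR on the 4 libraries of both groups (adjusted p = 0.0442) or once the trend with exon length was removed (adjusted p = 0.0162). Between 89.3% and 100% of its exon reads were uniquely mapped, and a processed pseudogene, Gm8093, overlaps it on the opposite strand.

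Tmem173 (ENSMUSG00000024349, chromosome 18, 35733678 to 35740554, minus strand), the gene of the adaptor STING, had the highest level of the 9 genes in every T-cell group. It had 53.4 and 41.0 RPKM in activated T cells, 53.8 and 56.9 RPKM in mixed medium and 67.1 and 62.5 RPKM in co-culture. The 3 groups did not overlap with each other, but differed by at most 0.66 ± 0.29 on the log2 scale (edgeR adjusted p = 0.180). In keratinocytes it had 4.10 and 15.7 RPKM alone and 5.34 and 24.6 RPKM in co-culture, with replicate 2 at 3.84-fold and 4.61-fold of replicate 1.

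The T-cell marker ratio would give 4.07, 17.2, 5.29 and 28.7 RPKM of Tmem173 in these 4 keratinocyte libraries, that is 99.3%, 109.5%, 99.0% and 116.5% of the measured levels. Its level in keratinocyte libraries therefore moved with that of T-cell markers. Keratinocytes alone were below activated T cells by -2.08 ± 0.78 (edgeR adjusted p = 0.0654) and co-cultured keratinocytes below co-cultured T cells by -2.12 ± 0.78 (edgeR adjusted p = 0.0794). Both passed with DESeq2 (adjusted p = 0.0225 and 0.0224), with limma on log2(RPKM + 1) (adjusted p = 0.0210 and 0.0303) and without a filter on low counts (edgeR adjusted p = 0.00937 and 0.0109). Without replicate 2 of the respective keratinocytes these were -3.49 and -3.76, and both passed the edgeR test (adjusted p = 0.0339 and 0.00965).

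**Figure D4:**
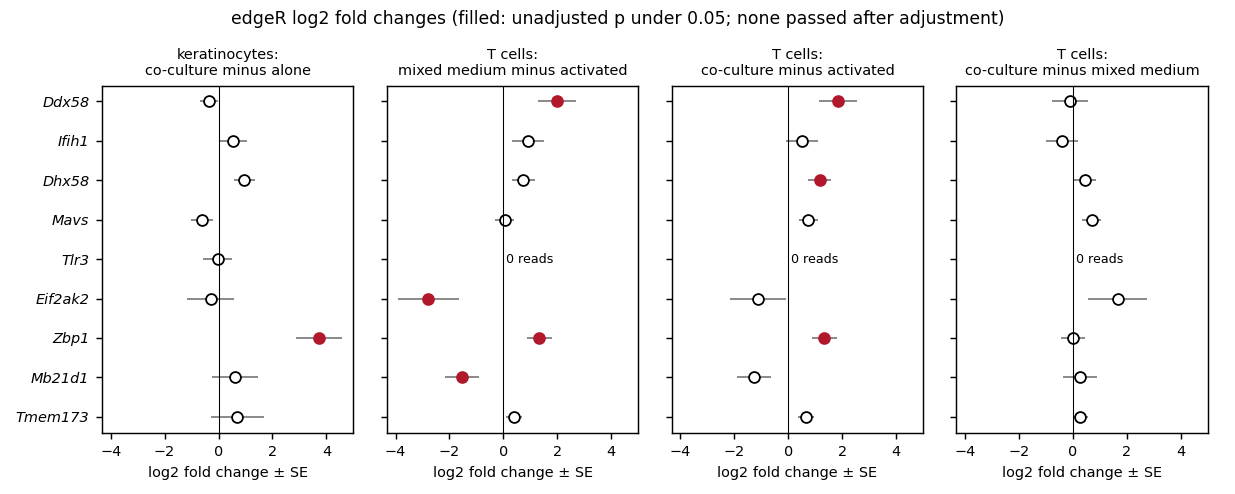
Log2 fold changes from edgeR (x axis) with standard errors (bars) of the 9 sensor genes (y axis) in 4 comparisons. Filled points have an unadjusted p under 0.05. After adjustment over all genes none of the 9 passed in these comparisons, and Zbp1 in keratinocytes is farthest from 0.

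Counted over the list, 0 of 9 genes passed the adjusted edgeR test between keratinocytes with and without T cells, where 0.00% of the 12515 genes tested were called in either direction. Before adjustment 1 of 9 was higher (Zbp1), against 3.08% of all genes, and 0 of 9 lower, against 4.12%. DESeq2 called 1 of 9 genes. Non-overlapping higher libraries were found for 2 of 9 genes, Dhx58 and Zbp1, against 19.8% of all genes, and non-overlapping lower ones for 0 of 9, against 24.3%. The median log2 fold change was 0.52 for the 9 genes and 0.02 for all genes.

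In T cells 8 of the 9 genes passed the filter on low counts, since Tlr3 had no reads. None passed the adjusted edgeR test in mixed medium against activated T cells, where 2.32% of all genes were called higher and 4.22% lower. Before adjustment 2 were higher (Ddx58 and Zbp1, against 11% of all genes) and 2 lower (Eif2ak2 and Mb21d1, against 14%). The libraries did not overlap and were higher for Ddx58, Dhx58, Zbp1 and Tmem173, against 22.1% of all genes, and lower for Eif2ak2 and Mb21d1, against 32.5%. For co-culture against activated T cells, which shares the activated libraries, none passed either (4.59% and 5.72% of all genes were called), and Ddx58, Dhx58 and Zbp1 were higher before adjustment, against 13.9% of all genes, and 0 genes lower, against 14.9%. Non-overlapping libraries were higher for these 3 genes, Mavs and Tmem173, against 23.6% of all genes, and lower for Mb21d1, against 33.9%. For co-culture against mixed medium 0 of 8 genes reached an edgeR p under the threshold before adjustment, against 2.70% of all genes higher and 0.750% lower, or after it. There 0.261% of all genes were called higher and 0.00% lower, and DESeq2 called 0 of the sensor genes. Non-overlapping libraries were higher for Dhx58, Mavs and Tmem173, against 14.2% of all genes, and lower for none, against 13.1%.

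By the main edgeR test, sensor genes passed after adjustment only in comparisons between cell types. Of the 9 genes, 4 were higher in keratinocytes alone than in activated T cells after adjustment, against 22.5% of all genes (Ddx58, Ifih1, Mavs and Tlr3), and 1 was lower, against 13% (Zbp1). Only Tlr3 kept its call without any one of these 4 libraries. Without replicate 1 of the keratinocytes the edgeR adjusted p was 0.0846 for Ddx58, 0.0665 for Ifih1, 0.0685 for Mavs and 0.164 for Zbp1, without their replicate 2 it was 0.0501 for Ddx58 and 0.0746 for Ifih1, without T-cell replicate 1 it was 0.128 for Ddx58, 0.120 for Ifih1 and 0.126 for Zbp1, and without T-cell replicate 2 it was 0.0544 for Mavs and 0.0894 for Zbp1. In co-culture 2 were higher in keratinocytes, against 17.0% of all genes (Ifih1 and Tlr3), and 0 lower, against 6.73%. Before adjustment Tmem173 was lower in keratinocytes in co-culture, against 13.2% of all genes, and in keratinocytes alone Zbp1, Mb21d1 and Tmem173 were, against 18.2%. The genes higher after adjustment were also those higher before it, against 28.1% of all genes alone and 24.6% in co-culture. Without overlap the same 4 genes were higher alone, against 38.7%, and these 3 lower, against 35.1%, while in co-culture Ifih1 and Tlr3 were higher, against 36.7%, and Tmem173 was lower, against 25.7%. No sensor gene passed the test of a difference between the effects of co-culture on both cell types, where 0.0530% and 0.523% of all genes were called higher and lower. Before adjustment Zbp1 was higher, against 2.47% of all genes, and Mavs lower, against 4.59%.

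Downstream of the sensors, 21 genes of the signalling chain from MAVS, STING and TLR3 to NF-κB and the interferon regulatory factors were tested. In keratinocytes none passed after adjustment, and 2 of 21 were higher before it, against 3.08% of all genes, and 0 lower, against 4.12%. Irf7, the factor that amplifies interferon transcription, had 1.98 and 2.14 RPKM alone and 13.9 and 16.8 RPKM in co-culture (2.97 ± 0.36 on the log2 scale, edgeR adjusted p = 0.434). Tbkbp1, which encodes a binding partner of the kinase TBK1, had 0.318 and 0.222 RPKM alone and 1.71 and 0.869 RPKM in co-culture (2.30 ± 0.69, edgeR adjusted p = 0.658). None of the 21 passed in the comparisons among T cells, where 0.00% to 5.72% of all genes were called in a direction. Between keratinocytes alone and activated T cells 1 was higher (Ikbkg, 1.31), against 22.5% of all genes, and 4 were lower (Tbkbp1, Nfkb1, Irf3 and Traf2, at -3.94, -1.71, -0.99 and -0.92), against 13%.

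Of 14 cofactors and brakes of RIG-I and MAVS, none passed in keratinocytes or among T cells. Nlrx1, a mitochondrial protein that restrains MAVS, was higher in keratinocytes alone than in activated T cells (2.78 ± 0.53 on the log2 scale, edgeR adjusted p = 0.00456). It was the only higher gene of the 14, against 22.5% of all genes. Ppp1cc and Pcbp2 were lower (-1.82 and -1.17), that is 2 of 14, against 13%. In co-cultured keratinocytes against co-cultured T cells, 2 of the 14 were higher after adjustment, against 17.0% of all genes, and 5 lower, against 6.73%. Ppp1cc encodes a phosphatase subunit that acts on RIG-I and MDA5, and PCBP2 promotes the decay of MAVS.

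Enzymes that remove or edit nucleic acids form a list of 9 genes. Samhd1, which encodes a dNTP hydrolase, had 4.53 and 10.6 RPKM in keratinocytes alone and 31.9 and 26.0 RPKM in co-culture (1.98 ± 0.51, edgeR adjusted p = 0.658). It rose from 29.1 and 35.3 RPKM in activated T cells to 121.4 and 83.1 RPKM in co-cultured T cells (1.84 ± 0.34, edgeR adjusted p = 0.0170, and 0.0958 without replicate 1 of the activated T cells). No other of the 9 genes passed there, where 4.59% of all genes were called higher and 5.72% lower. The mean of Samhd1 in co-cultured T cells was 102.2 RPKM. T-cell marker ratios were 6.28% and 26.6% in keratinocytes alone and 8.16% and 44.3% in co-cultured keratinocytes. The part of this RNA in the levels of Samhd1 in keratinocyte libraries was not tested. Dnase2a, the lysosomal DNase, had 19.9 and 23.8 RPKM in keratinocytes alone and 8.87 and 7.83 RPKM in co-culture (-1.32 ± 0.31, edgeR adjusted p = 0.658). Between the cell types alone, 1 gene was higher in keratinocytes (Dnase2a, 2.35), against 22.5% of all genes, and 4 were lower (Samhd1, Rnaseh2b, Trex1 and Rnaseh2a, at -1.94, -1.85, -1.70 and -1.05), against 13%.

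In the branch of eIF2α kinases (11 genes), in which PKR acts, Eif2s1 and Atf4 fell from activated T cells to mixed medium, Eif2s1 by -1.71 ± 0.34 and Atf4 by -2.31 ± 0.46 on the log2 scale (edgeR adjusted p = 0.0297 for both). No other of the 11 passed there, where 4.22% of all genes were called lower and 2.32% higher. Eif2s1 encodes the substrate eIF2α and Atf4 the transcription factor translated upon its phosphorylation. Eif2s1 also fell in co-culture (-1.63 ± 0.34, edgeR adjusted p = 0.0235), as the only call of the 11 genes, where 5.72% of all genes were called lower and 4.59% higher. The calls of Eif2s1 in mixed medium ended without any one library (edgeR adjusted p = 0.0515 to 0.168), those of Atf4 without replicate 1 of the activated T cells or either library of mixed medium (edgeR adjusted p = 0.128 to 0.139), and that of Eif2s1 in co-culture without replicate 1 of the activated or either library of co-cultured T cells (edgeR adjusted p = 0.0634 to 0.122). None of the 11 passed in keratinocytes, before or after adjustment, and their median log2 fold change there was -0.37. Of 4 necroptosis partners of ZBP1 only Mlkl, the executioner of necroptosis, reached an edgeR p under the threshold before adjustment in keratinocytes, against 3.08% of all genes higher, with 9.83 and 6.46 RPKM alone and 28.2 and 11.9 RPKM in co-culture (1.35 ± 0.49, edgeR adjusted p = 0.658).

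Of 9 other sensors of nucleic acids, 6 passed the filter in keratinocytes. None of these 6 differed detectably between keratinocytes with and without T cells, before or after adjustment. Before adjustment 3.08% of all genes were higher there and 4.12% lower, and after it 0.00% were called in either direction. The study listed Ifi204 among genes induced in these same libraries. The chaperone gene Unc93b1, whose product brings endosomal TLRs to their place, rose from activated to co-cultured T cells (1.63 ± 0.39, edgeR adjusted p = 0.0358), which did not pass without replicate 1 of the activated or either library of co-cultured T cells (edgeR adjusted p = 0.0627 to 0.173). Ifi204 was higher in keratinocytes alone than in activated T cells (3.89 ± 1.01, edgeR adjusted p = 0.0169), and the genes of the DNA sensor AIM2 and of the RNA receptor TLR7 were lower (-3.01 for Aim2 and -3.0 for Tlr7).

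Interferon genes, the transcriptional output of most of these sensors, were nearly silent. Of 20 genes of type I and type III interferons 16, Ifnb1 included, had 0 reads in all 10 libraries, and the other 4 summed to 7 reads. A transcript with 1 kb of exons and 3 reads has 0.158 to 0.212 RPKM here, depending on the library. Ifng, the gene of the type II interferon of T cells, had 612.6 and 589.2 RPKM in activated T cells. It fell to 5.95 and 7.20 RPKM in mixed medium and to 3.26 and 6.20 RPKM in co-culture, by -6.36 ± 0.49 and -6.77 ± 0.50 on the log2 scale (edgeR adjusted p = 0.00345 and 0.00162).

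Among the genes of interferon signal transduction, none passed in keratinocytes after adjustment, while Irf1, Irf9 and Stat2 were higher before it, against 3.08% of all genes. Irf1 had 3.19 and 5.71 RPKM in keratinocytes alone and 58.4 and 62.3 RPKM in co-culture (3.83 ± 0.45, edgeR adjusted p = 0.434). Irf9 and Stat2, whose products belong to a complex that binds interferon-stimulated response elements, were higher by 1.59 ± 0.34 and 1.40 ± 0.45 (edgeR adjusted p = 0.658 for both Stat2 and Irf9). For each of the 3 genes both co-cultured libraries were the higher ones. DESeq2 called Irf1 and Irf9 (adjusted p = 2.76e-12 and 0.0207), and the edgeR adjusted p of Irf1 was 0.0320 without co-culture replicate 2 and 0.00613 without replicate 1. The same T-cell RNA that is described above was present in these libraries, and its part in these differences was not tested.

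For Irf1 the effect of co-culture in keratinocytes exceeded that in T cells by 3.73 ± 0.54 (edgeR adjusted p = 0.0364), a call that ended upon leaving out any library but co-culture replicate 1 of the keratinocytes (edgeR adjusted p = 0.0642 to 0.143). In T cells Ifnar2, the gene of a chain of the type I interferon receptor, rose from activation to mixed medium and to co-culture by 1.66 ± 0.32 and 1.65 ± 0.32 (edgeR adjusted p = 0.0270 and 0.0193), where 2.32% and 4.59% of all genes were called higher. Both calls ended without any one library of the groups compared (edgeR adjusted p = 0.0533 to 0.137).

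**Figure D5:**
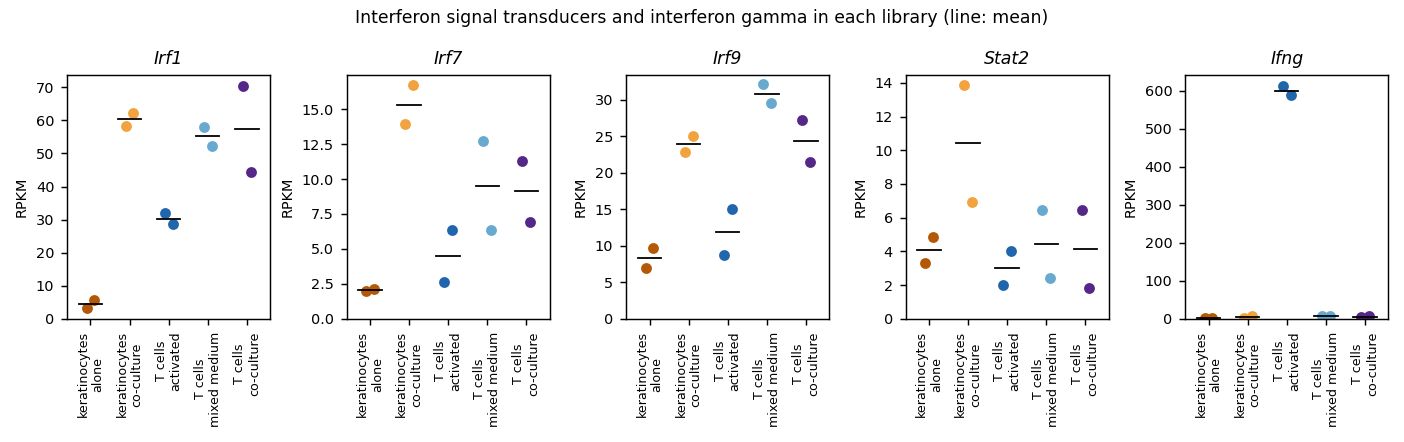
RPKM (y axis, linear, from 0) of 4 interferon-related transcription factor genes and of Ifng in the 10 libraries by group (x axis), with replicate 1 left, replicate 2 right and lines at group means. Both co-cultured keratinocyte libraries are above those without T cells for each factor, and Ifng is high only in activated T cells, at 612.6 and 589.2 RPKM.

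The genes whose levels over the 10 libraries were most like those of a sensor gene were sought among 10745 genes with a mean of 1 RPKM or more, by Pearson's r of log2(RPKM + 1). These libraries share groups and depth, so r is a description. The nearest genes to Zbp1 were Gbp2, Tgtp1 and Gbp7 (r = 0.978, 0.964 and 0.960), which encode interferon-inducible GTPases. Dhx58 was nearest to Oas3 (r = 0.901), the gene of another sensor of double-stranded RNA, followed by Vmac and Tmem140 (r = 0.883 and 0.873). Tmem173 was nearest to Cd226, Il2rb and Lat (r = 0.993, 0.992 and 0.989), genes of T cells.

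The other members were nearest to genes of diverse kinds: Ddx58 to Hp1bp3, Calcoco1 and Aes (r = 0.970, 0.966 and 0.965), Ifih1 to Hs1bp3, Sptlc2 and Osbpl5 (r = 0.959, 0.953 and 0.947), and Mavs to Psca, Atg9b and Zfyve27 (r = 0.971, 0.970 and 0.967). Eif2ak2 was nearest to Lrrc20, Mapk7 and Ap2a2 (r = 0.981, 0.977 and 0.974) and Mb21d1 to Gsr, Hnrnph2 and Fig4 (r = 0.966, 0.957 and 0.952). Tlr3 had a mean below 1 RPKM and was not compared.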

How the data were processed

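Poly(A) RNA went into NEBNext Ultra II libraries, which the authors sequenced from one end. They aligned the reads to GRCm38 in the CLC Genomics Workbench at its defaults. The annotation release and use of strand are not given in the sources used here. Each table the authors deposited gives raw counts of exon, intron and uniquely mapped reads by gene, as well as RPKM values scaled to exon length and mapped reads. Replicate numbers of keratinocytes and activated T cells come from the labels, those of the other T cells are names only.

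Exon read counts were tested by the quasi-likelihood method of edgeR 4.0.16 (R 4.3.3), after filterByExpr and TMM scaling and with Benjamini-Hochberg adjustment over all genes, using 4 libraries for keratinocytes, 6 for T cells, 8 for the difference of effects, and 10 for comparisons between cell types. A difference passed at an adjusted p under 0.05. With 2 libraries against 2, an exact two-sided permutation test of a single value cannot go below 0.333. RPKM values were used for levels. As alternatives, each library was left out, the replicate number was used as a block, other sets of libraries were fitted, uniquely mapped gene reads were counted, the filter was dropped or raised to 10 reads in every library, TMM gave way to library size, and DESeq2 1.42.0 or limma 3.58.1 (on RPKM plus 1 or plus 0.1, log2 scale) was run. Uniquely mapped exon reads and removal of the exon length trend, alone or with the block, were alternatives chosen after seeing the data. The script was tested on simulated data. Floors of 3 reads cover counting error only.

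The 9 members, the gene lists and the tests were chosen with earlier results of these data known. Named are the members, genes of the lists that passed (in keratinocytes also those with an unadjusted p under 0.05), marker genes, and the 3 genes most like each member. Not every list gene that passed between cell types is named. Log2 fold changes between groups other than the keratinocyte groups were recomputed for members with an unadjusted p under 0.05 or without overlap. Promoter sequences are from RefSeq (GRCm38.p6), coordinates of genes from the deposited tables. Python 3.11.15 was used for tables and plots. One gene of the lists is not reported here.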

Additional observations from a re-analysis of the deposited data

Results flagged for a closer look

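The intron reads of Ddx58 stood out in activated T cells, with 298 and 447 reads, since introns held more than 50% of the reads of the gene in both libraries and more than in any other library. These reads are not part of the exon counts tested. The difference of co-culture effects on Irf1 between keratinocytes and T cells, 3.73 on the log2 scale, passed the edgeR test of the difference itself (adjusted p = 0.0364). In groups of 2 libraries a single deviating library was not sought.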

How the results depend on the processing

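Of 584 recomputed log2 fold changes of sensor genes, 523 kept their direction and their side of the threshold, 33 newly passed, 19 no longer passed and 9 changed sign. Of 712 values of genes of the other lists these were 584, 17, 111 and 0. For co-culture in keratinocytes, the main count was 0 of all genes and 0 sensor genes. DESeq2 gave 186 and 1 (Zbp1), no filter gave 11 genes, and one fit of all 10 libraries gave 4. The replicate block gave 2 genes, and together with removal of the exon length trend 127 genes and 1 sensor gene (Zbp1). The labels do not say that a number marks a shared batch, so the block stands here only. The deviations of the 2 libraries numbered 1 from their group means correlated with r = 0.558 over 12515 genes. Any spread shared by replicate number stayed in the error of the main test. With a library left out the counts were 0 to 1164 genes and 0 to 1 sensor genes, of which 1164 and 1 came without co-culture replicate 1, and the co-culture log2 fold changes ranged from -0.32 to 1.03 for Ifih1, -0.61 to 0.50 for Tlr3, -2.06 to 0.45 for Eif2ak2, -0.36 to 1.5 for Mb21d1 and -0.91 to 2.03 for Tmem173. Tlr3 was 0.22 without the exon length trend and 0.25 with the block as well. The cause was not tested.

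From activated T cells to mixed medium, DESeq2 called 1947 genes and 2 sensor genes, no filter 1945 and 3, and removal of the length trend 1253 genes, against 776 and 0, with 24 to 1067 genes upon leaving out a library. From activated to co-cultured T cells, DESeq2 called 2344 and 2, and no filter 2425 and 2, against 1222 and 0, with 266 to 1093 genes upon leaving out a library. Between co-culture and mixed medium the 31 genes became 87 (DESeq2), 99 and 107 (limma with a pseudocount of 1 and 0.1), 141 (no filter), 0 (at least 10 reads), 53 (uniquely mapped gene reads), 83 (fit of 10 libraries) and 16 to 52 (a library left out). For the difference of effects the 76 genes became 358 (with 1 sensor gene, Zbp1) with DESeq2, 205 without a filter, 0 with at least 10 reads and 21 to 105 with a library left out.

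Between the cell types alone, 4754 genes and 5 sensor genes became 2394 to 3319 genes and 1 to 4 sensor genes upon leaving out a library, and 8 sensor genes in the fit of 6 libraries with the replicate block. Removal of the length trend turned the split of 3014 higher and 1740 lower genes into 2297 and 3979. In co-culture, 3177 genes and 2 sensor genes became 1904 and 1 with at least 10 reads, 1731 and 1 in a fit of 4 libraries, and 1614 to 3336 genes and 1 to 3 sensor genes upon leaving out a library, while without the length trend 1864 were higher and 2291 lower. Library size in place of TMM moved the median log2 fold change of all genes from -0.01 to -0.12 for mixed medium, from -0.01 to -0.17 for co-cultured against activated T cells and from 0.14 to -0.02 between the cell types alone. It changed the sign of no recomputed value of a sensor gene. Between the cell types alone the 5 sensor genes called became 6, with 4 higher and 2 lower. The genes listed with few reads, such as Mb21d1 with 25 to 96 in keratinocytes, limit what this depth can show.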
